A study of Rattus norvegicus with 8 samples.

Results

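Nitrogen freed from amino acids in the liver passes through a short series of enzymes, and the transcripts of 10 of them were followed here in obese and lean rats that received testosterone undecanoate (TU, an esterified testosterone that acts slowly) or only the vehicle. Glutamate collects amino groups through transaminases. Glutamate dehydrogenase releases them as ammonia in the mitochondria, and the urea cycle of periportal hepatocytes binds that ammonia in urea. Hormones of fasting and stress, glucagon and glucocorticoids, are known to raise many of these enzymes in rat liver, and the urea cycle enzymes are among the abundant products of hepatocytes. The genes were taken by name: Glud1, Gls2 and Got1 handle glutamate, Tat and Sds break down single amino acids, and Cps1, Otc, Ass1, Asl and Arg1 form the urea cycle. All 10 had a named probe among 13458 named genes, and together they had 12 of the 41012 distinct probes on the array, 3 of them for Glud1. All 12 passed a filter that 26964 probes passed, which asked for a signal well above background in at least 1 dye on at least 4 of 8 arrays. Each of the 12 was in fact well above background in both dyes on all 8 arrays, and none was saturated or marked as non-uniform.

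Male Zucker diabetic fatty rats aged 12 weeks were used, 4 arrays holding obese rats (fa/fa), which are homozygous for a defective leptin receptor, and 4 holding lean rats (fa/+), which carry 1 copy of the same allele. TU in propylene glycol was given under the skin at 20 mg/kg for 4 weeks, more often at first and then weekly, and control rats had the vehicle. Each array set liver RNA of TU-treated rats, labelled with the dye Cy5, against liver RNA of vehicle-treated rats of the same genotype, labelled with Cy3. The labels number the arrays as biological replicates 1 to 4, and do not say whether an RNA came from 1 animal or from a pool, so p-values measure the spread between arrays. TU was in Cy5 on every array, so a difference between the dyes on a probe would add to its TU response. The obese arrays were on one slide and the lean arrays on another, so that slide cannot be told apart from genotype. The log2 ratios of obese replicate 2 spread most (SD 0.46, other arrays 0.11 to 0.25), and its values are given beside each result that rests on it. The tissue label was met by the markers: all 8 hepatocyte markers passed the filter, and 0 of 3 kidney markers did, kidney being another organ that expresses Glud1, Ass1 and Asl. Liver pieces are mixtures, in which fewer cells of a type and less RNA per cell cannot be told apart.

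Whether TU changed these transcripts was asked first. The transcript of Glud1, the mitochondrial glutamate dehydrogenase, was higher with TU in obese and in lean rats by 1 of its 3 probes, and it was the only one of the 10 genes to pass the test. On the brightest Glud1 probe, A_43_P14157, the log2 ratio of TU over vehicle was 0.71, 0.88, 0.58 and 0.65 in obese replicates 1 to 4 and 0.39, 0.36, 0.34 and 0.43 in lean replicates 1 to 4. All 8 arrays lay above 0, and every obese array lay above every lean array. The mean was 0.70 ± 0.054 (SE) in obese rats, a 1.63-fold rise (limma adjusted p = 0.0140), and 0.38 ± 0.054 in lean rats, a 1.30-fold rise (adjusted p = 0.0437, n = 4 arrays each). In obese rats this was 1 of 12 probes called, against 0.0111% of all probes tested, and in lean rats 1 of 12 against 0.197%. These calls did not hold when single arrays were left out. In obese rats it was lost without any 1 of the lean arrays, which share the estimate of the spread (adjusted p 0.0683 to 0.0776), without obese replicate 1 (0.199) and without obese replicate 4 (0.0553). In lean rats it was lost without any 1 array (adjusted p 0.0757 to 0.225) except obese replicate 2. The mean itself moved little, from 0.65 to 0.75 in obese rats and from 0.36 to 0.39 in lean rats. Calls over all probes in obese rats fell from 3 to 0 without any 1 lean array. In lean rats they numbered 53 with all arrays and 1 to 18 without any 1 array except obese replicate 2 (1199).

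The other Glud1 probes, which are annotated to the same transcript, were not called in either genotype. Probe A_44_P259908 had log2 ratios of 0.049, -0.67, -0.093 and 0.027 in obese rats and -0.22, 0.16, -0.17 and -0.32 in lean rats. Probe A_44_P472500 had 0.096, -0.79, -0.11 and 0.029 in obese rats and -0.11, 0.24, -0.17 and -0.26 in lean rats. These 2 probes differed from each other by at most 0.12 on any array, and obese replicate 2 was the lowest array of both. Their means were -0.17 ± 0.12 and -0.19 ± 0.14 in obese rats (adjusted p = 0.517 and 0.524), against -0.14 ± 0.12 and -0.076 ± 0.14 in lean rats (0.665 and 0.858). Probe A_43_P14157 lay above the mean of the other 2 by 0.64, 1.61, 0.68 and 0.62 log2 units in obese replicates 1 to 4 and by 0.55, 0.16, 0.51 and 0.72 in lean replicates 1 to 4. The gap was thus present on all 8 arrays, and averaging the 3 probes left a Glud1 response of 0.11 in obese rats and 0.055 in lean rats (adjusted p = 0.530 and 0.814). The position of each probe in the transcript was not analysed here, and which of them follows the Glud1 message was not tested.

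**Figure D1:**
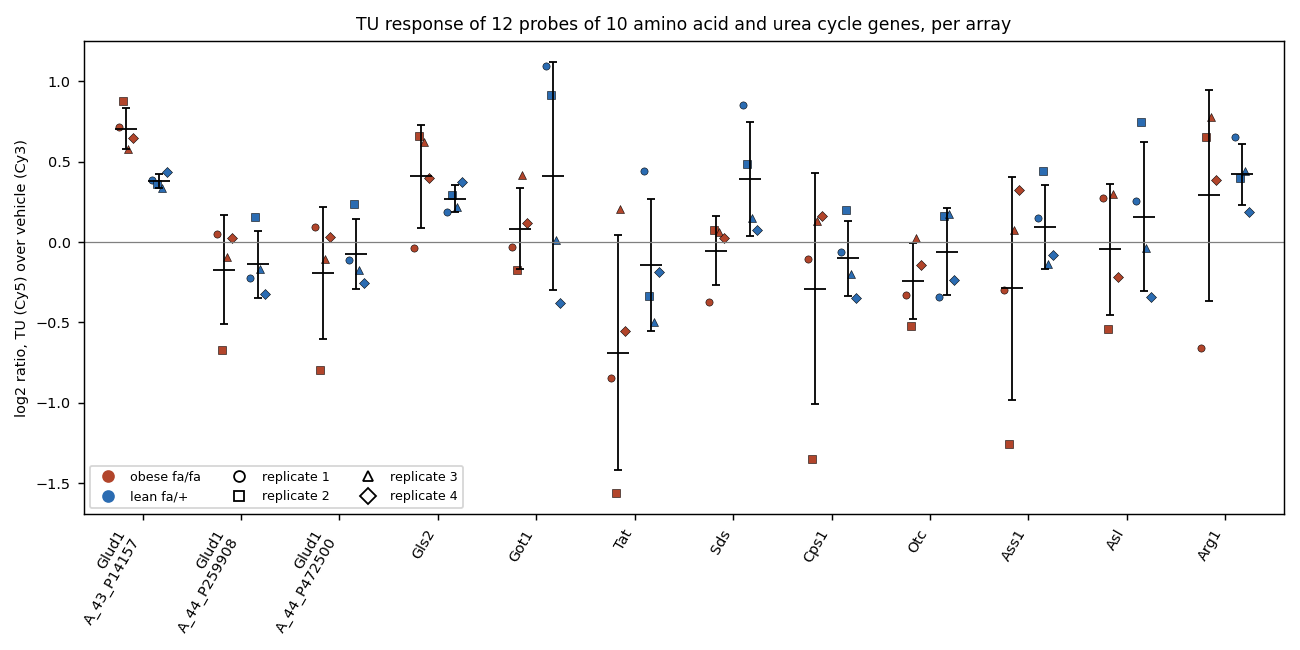
The log2 ratio of TU over vehicle on each array is plotted for the 12 probes, obese arrays in red left of lean arrays in blue, marker shape giving the replicate, and black bars the mean ± SD of 4 arrays. On Glud1 probe A_43_P14157 all obese points (0.58 to 0.88) lie above all lean points (0.34 to 0.43), while obese replicate 2, the red square, is the lowest point for Tat, Cps1 and Ass1.

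Gls2, the liver glutaminase that frees ammonia from glutamine, did not pass the test in either genotype. Its log2 ratios were -0.038, 0.66, 0.62 and 0.40 in obese rats and 0.19, 0.29, 0.22 and 0.37 in lean rats, above 0 on 3 of 4 obese and on 4 of 4 lean arrays. The means were 0.41 ± 0.10 in obese rats (adjusted p = 0.312) and 0.27 ± 0.10 in lean rats (0.278). Got1, the cytosolic aspartate transaminase, had -0.028, -0.18, 0.42 and 0.12 in obese rats and 1.09, 0.91, 0.014 and -0.38 in lean rats. Its lean arrays fell into a high pair, replicates 1 and 2, and a pair near or below 0. The means of 0.082 ± 0.22 in obese and 0.41 ± 0.22 in lean rats were within that spread (adjusted p = 0.877 and 0.439).

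Tat, the tyrosine aminotransferase that glucocorticoids induce in rat liver, had the lowest mean response of the 12 probes in obese rats. Its log2 ratios were -0.84, -1.56, 0.21 and -0.55 in obese rats and 0.44, -0.34, -0.49 and -0.19 in lean rats. On 3 of 4 arrays of each genotype it lay below 0, and the genotypes overlapped. The mean of -0.69 ± 0.25 in obese rats did not pass (adjusted p = 0.373, 95% interval -1.25 to -0.12), and without obese replicate 2 it was -0.40. In lean rats it was -0.14 ± 0.25 (adjusted p = 0.844). Sds, the serine dehydratase that turns serine and threonine toward gluconeogenesis, had -0.37, 0.076, 0.063 and 0.024 in obese rats and 0.85, 0.49, 0.15 and 0.073 in lean rats. All 4 lean arrays were above 0, while obese replicate 1 stood well below the other obese arrays, which were near 0. Its mean of 0.39 ± 0.13 in lean rats had an adjusted p of 0.208, against -0.053 ± 0.13 in obese rats (0.860).

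In the urea cycle 0 of 5 genes passed in either genotype, with 0 at an unadjusted p under 0.05 in limma in either. The first enzyme, the mitochondrial carbamoyl phosphate synthetase Cps1, had log2 ratios of -0.11, -1.35, 0.13 and 0.16 in obese rats and -0.062, 0.20, -0.20 and -0.35 in lean rats. Obese replicate 2 stood apart from the other 3 obese arrays, which lay on both sides of 0, and the mean of -0.29 ± 0.22 became 0.063 without it. The next enzyme, the ornithine transcarbamylase Otc, had -0.33, -0.52, 0.025 and -0.14 in obese rats and -0.34, 0.16, 0.18 and -0.24 in lean rats, with means of -0.24 ± 0.11 and -0.060 ± 0.11. For Ass1, which joins citrulline and aspartate and is often rate-limiting, the ratios were -0.30, -1.25, 0.074 and 0.33 in obese rats and 0.15, 0.44, -0.13 and -0.082 in lean rats. Again obese replicate 2 was far below the rest, and the obese mean was -0.29 ± 0.22 with it and 0.034 without it, beside a lean mean of 0.094 ± 0.22. Asl, the lyase that releases fumarate and arginine, ranged from -0.54 to 0.30 in obese rats and from -0.34 to 0.75 in lean rats. Arg1, the arginase that yields urea, had -0.66, 0.65, 0.78 and 0.39 in obese rats and 0.65, 0.40, 0.44 and 0.19 in lean rats. All arrays but obese replicate 1 lay above 0, and the means were 0.29 ± 0.20 in obese rats and 0.42 ± 0.20 in lean rats (adjusted p = 0.510 and 0.380).

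Over the 12 probes, the median response was -0.11 in obese rats, beside -0.0095 for all probes tested, and 0.13 in lean rats, beside -0.019. At an unadjusted p under 0.05 there were 3 of 12 in obese rats and 3 of 12 in lean rats, beside 12.7% and 15% of all probes. All 4 arrays lay above 0 for 1 of 12 probes in obese rats and for 4 of 12 in lean rats, beside 12.6% and 11.9% of all probes (on either side of 0, 23.6% and 30.4%). In lean rats these were the Glud1 probe A_43_P14157, Gls2, Sds and Arg1. Arrays differed in how the 12 probes lay. The median over the 12 probes was -0.073, -0.53, 0.17 and 0.073 on obese replicates 1 to 4 and 0.22, 0.33, -0.011 and -0.21 on lean replicates 1 to 4, while that of all probes stayed within 0.016 of 0. The number of probes above 0 ran from 4 on obese replicates 1 and 2 to 10 on obese replicate 3, and from 4 on lean replicate 4 to 11 on lean replicate 2. Without obese replicate 2 the obese median was 0.048, with 8 of 12 above 0 in place of 4.

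Bringing the 2 dyes to one scale by median centring in place of loess turned the sign of 6 of 12 responses in obese rats and of 7 of 12 in lean rats. All 12 probes are bright, with mean signals at or above the 76.4th percentile of the probes that passed the filter. Among the 2697 brightest probes the raw log2 ratio centred on the array's median was 0.80 on obese replicate 2, the other 3 obese arrays having 0.048 to 0.28. It was -1.34 on lean replicate 3, the other 3 lean arrays having -0.32 to -0.16. Loess, which fits the ratio against brightness, brought it within 0.050 of 0 on every array. With median centring in place of loess, 10 of 12 probes lay above 0 in obese rats and 0 of 12 in lean rats, where the median of all probes itself shifted to -0.21. Glud1 probe A_43_P14157 then stood at 1.16 in obese rats and at -0.092 in lean rats, both without a call (adjusted p = 0.713 and 0.783). Otc was called lower in lean rats under that setting (-0.57, adjusted p = 0.0443). From the scanner software's own processed signals the same Glud1 probe stood at 0.58 in obese rats and 0.24 in lean rats, also without a call (0.0531 and 0.277).

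**Figure D2:**
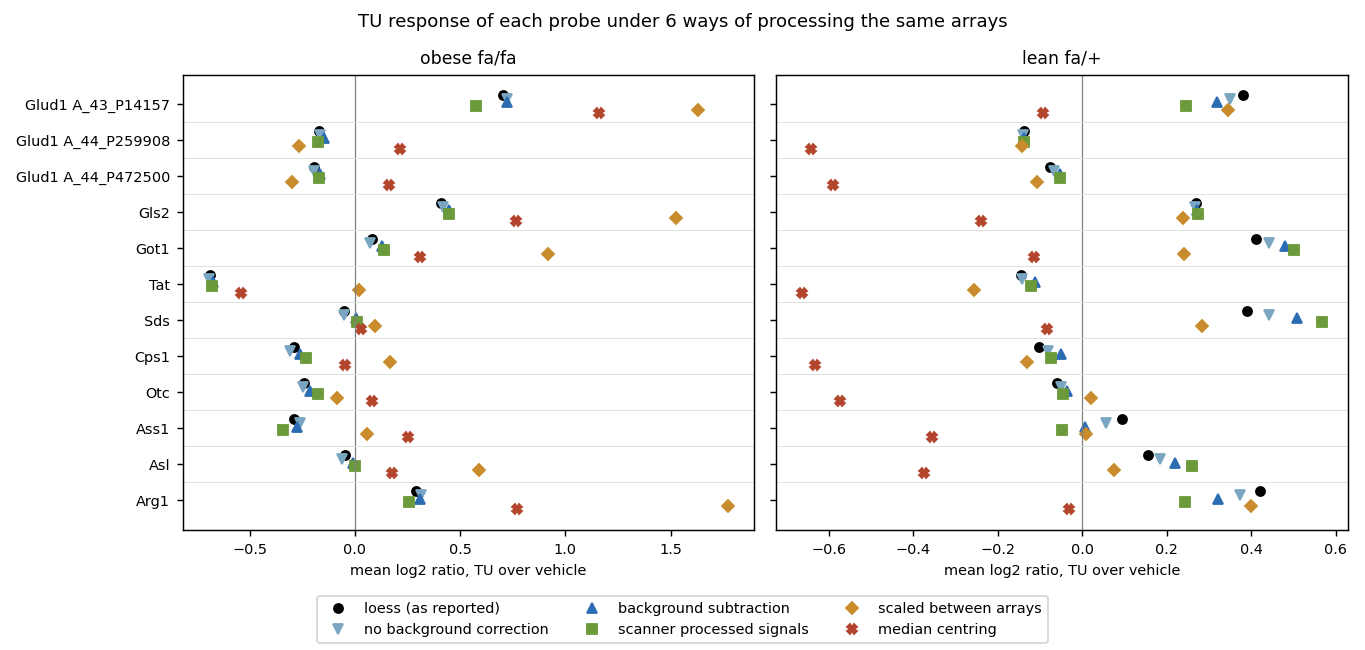
Each probe's mean log2 ratio of TU over vehicle is plotted under 6 ways of processing, in obese rats on the left and lean rats on the right, with the loess value as a black circle and separate horizontal scales. The median-centred values, red crosses, lie below 0 for all 12 probes in lean rats, and the values scaled between arrays, orange diamonds, reach furthest from 0 in obese rats.

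Whether the response differed between the genotypes was tested as the obese minus lean difference. It passed for 0 of 12 probes, beside 0.00372% of all probes, with 2 of 12 at an unadjusted p under 0.05 in limma, beside 7.62% of all. The Glud1 probe A_43_P14157 responded more in obese rats by 0.32 ± 0.076 log2 units (adjusted p = 0.641 in limma, 95% interval 0.15 to 0.50). It was the 1 probe of 12 on which the genotypes did not overlap, which held for 5.09% of all probes (3.14% with obese above lean and 1.95% below). For Sds the difference was -0.44 ± 0.18 (adjusted p = 0.651 in limma), the response being near 0 in obese rats and positive in lean rats. For Tat it was -0.54 ± 0.35, with a 95% interval of -1.34 to 0.26. All 5 urea cycle genes had a negative difference, from -0.38 for Ass1 to -0.13 for Arg1, none at an unadjusted p under 0.05. That direction did not hold throughout: without obese replicate 2 Cps1 was at 0.16, without obese replicate 1 Arg1 was at 0.19, and with median centring all 5 were positive (0.55 to 0.80).

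Obese and lean rats were then compared within each dye, TU-treated rats in Cy5 and vehicle-treated rats in Cy3. Higher in obese rats under both treatments were Cps1 and 2 of the 3 Glud1 probes, and no gene of the 10 was called lower. In TU-treated rats 4 of 12 probes were called, all higher, beside 12.1% of all probes called higher and 8.57% called lower. In vehicle-treated rats 3 of 12 were called, all higher, beside 8.2% higher and 7.08% lower. With genotype and slide inseparable, these are differences between the obese and the lean arrays. The 2 comparisons also share their arrays, so they are given side by side and not as repeats of each other.

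Cps1 had log2 levels of 11.72, 11.25, 11.43 and 11.64 in TU-treated obese rats and 10.78, 11.00, 10.43 and 10.38 in TU-treated lean rats. Its levels were 11.83, 12.60, 11.30 and 11.48 in vehicle-treated obese rats and 10.85, 10.80, 10.63 and 10.72 in vehicle-treated lean rats. Every obese array lay above every lean array in both dyes, for Cps1 and for 2 Glud1 probes, 3 of 12 in all, as 16.1% of all probes did with TU and 14.5% with vehicle in that direction (27.3% and 26.4% in either). The level was 1.82-fold higher in obese rats with TU (log2 0.86 ± 0.16, limma adjusted p = 0.00939) and 2.07-fold higher with vehicle (1.05 ± 0.26, adjusted p = 0.0358). The call with TU held without any 1 array. The call with vehicle was lost without each lean array (adjusted p up to 0.0994), without obese replicate 1 (0.0514) and with the processed signals (0.0514).

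Glud1 was higher in obese rats on all 3 probes with TU and on 2 with vehicle. Probe A_44_P259908 had log2 levels of 14.05, 13.69, 13.75 and 14.21 in TU-treated obese and 13.16, 13.40, 13.13 and 12.99 in TU-treated lean rats. With vehicle it had 14.00, 14.36, 13.84 and 14.18 in obese rats, against 13.39, 13.24, 13.29 and 13.32 in lean rats. The obese and lean values did not overlap in either dye, and the differences were 0.76 ± 0.14 with TU and 0.79 ± 0.11 with vehicle (adjusted p = 0.00765 and 0.00457). From processed signals the vehicle call was lost (0.0619). Probe A_44_P472500 differed by 0.84 ± 0.11 with TU and 0.96 ± 0.19 with vehicle (adjusted p = 0.00206 and 0.0184), also without overlap. Its vehicle call was lost without each lean array (adjusted p up to 0.0583). The brightest probe, A_43_P14157, had 15.70, 15.22, 15.38 and 15.80 in obese rats, against 15.23, 15.06, 15.02 and 14.99 in lean rats with TU, where the ranges met at obese replicate 2 and lean replicate 1. With vehicle it had 14.98, 14.34, 14.80 and 15.15 in obese rats, against 14.84, 14.70, 14.69 and 14.56 in lean rats, and the groups overlapped. It was thus 0.45 ± 0.13 higher with TU (adjusted p = 0.0483) and 0.12 ± 0.17 with vehicle (0.663). The call with TU was lost without any 1 array except obese replicate 2 (adjusted p up to 0.121). Thus 2 Glud1 probes passed under both treatments and 1 with TU alone. The test of that last contrast is the obese minus lean difference in response, which did not pass.

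**Figure D3:**
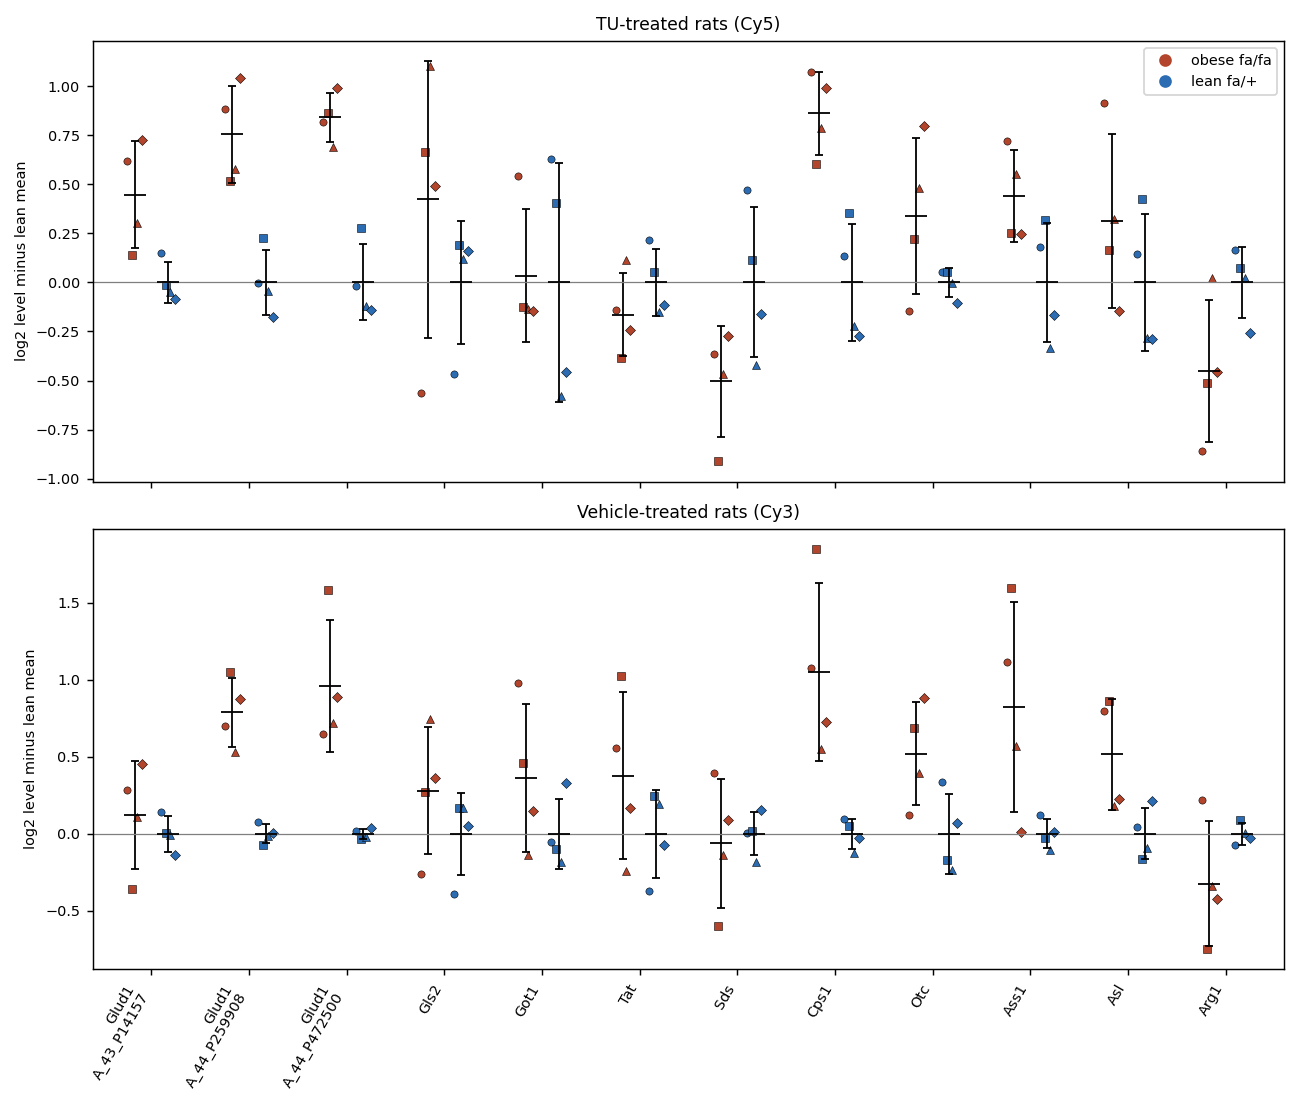
Log2 levels of the 12 probes minus the mean of the lean arrays are plotted for TU-treated rats above and vehicle-treated rats below, with obese arrays in red left of lean arrays in blue, marker shapes for replicates 1 to 4, and black bars for mean ± SD. Cps1 and Glud1 probes A_44_P259908 and A_44_P472500 are the ones whose red points all lie above all blue points in both panels.

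Of the other glutamate genes, Gls2 was 0.42 ± 0.34 higher in obese rats with TU and 0.28 ± 0.22 with vehicle (adjusted p = 0.423 and 0.428). Obese replicate 1 was low among the obese arrays in both dyes (12.74 with TU, others 13.80 to 14.41), and without it the TU difference was 0.75 and passed (adjusted p = 0.0270). Calls over all probes with TU rose as well under that setting, to 8576 of 26891, against 5565 of 26894 with all arrays. Got1 differed by 0.035 ± 0.30 with TU and 0.36 ± 0.24 with vehicle, neither past the threshold. Tat was at -0.16 ± 0.12 with TU and 0.38 ± 0.27 with vehicle, with overlap in both. Sds was at -0.51 ± 0.21 with TU (adjusted p = 0.132) and -0.062 ± 0.20 with vehicle (0.865). Its TU-treated levels spanned 8.45 to 9.09 in obese rats and 8.94 to 9.83 in lean rats, and the groups overlapped.

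The urea cycle enzymes after Cps1 did not pass in either dye. Otc was 0.34 ± 0.18 higher in obese rats with TU and 0.52 ± 0.19 with vehicle (adjusted p = 0.229 and 0.106). Without obese replicate 1, its lowest obese array, both passed (0.50 and 0.65, adjusted p = 0.0227 and 0.0396). Leaving out that array also raised calls over all probes, to 8576 of 26891 with TU and 5721 with vehicle, against 5565 and 4110 of 26894 with all arrays. Ass1 had 16.73, 17.22, 16.19 and 15.64 in vehicle-treated obese and 15.74, 15.59, 15.52 and 15.63 in vehicle-treated lean rats, with obese replicate 4 inside the lean range. Its differences were 0.44 ± 0.17 with TU and 0.82 ± 0.31 with vehicle (adjusted p = 0.108 and 0.112), and without obese replicate 4 the vehicle difference was 1.09 and passed (0.0310). Asl was at 0.31 ± 0.25 with TU and 0.52 ± 0.18 with vehicle (adjusted p = 0.421 and 0.0958). Arg1 alone of the 5 had a negative difference, at -0.45 ± 0.18 with TU and -0.32 ± 0.18 with vehicle (adjusted p = 0.118 and 0.275). Its TU-treated levels were 15.21, 15.56, 16.09 and 15.62 in obese rats, against 16.24, 16.15, 16.10 and 15.81 in lean rats. It passed as lower without obese replicate 3 with TU (-0.61, adjusted p = 0.0267) and without obese replicate 1 with vehicle (-0.50, 0.0193). Over the 5 genes the median was 0.34 with TU and 0.52 with vehicle, beside 0.023 and 0.017 for all probes. With each dye centred on its median and no loess, 0 of 12 probes passed in either dye, and in vehicle-treated rats 2 of 12 lay above 0 in place of 10, with a median over the 12 of -0.35 in place of 0.45 (Cps1 at 0.31 with vehicle and 0.65 with TU).

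The promoters of Glud1 and Cps1 are shown because these are the genes called between obese and lean rats, and their windows differ widely in base content. Both are the 250 bases before the RefSeq start on assembly GRCr8, plus strand, at chr16:9646319-9646568 for Glud1 and chr9:76063613-76063862 for Cps1, written 5′ to 3′ with the bases of a motif match in capitals.
Glud1: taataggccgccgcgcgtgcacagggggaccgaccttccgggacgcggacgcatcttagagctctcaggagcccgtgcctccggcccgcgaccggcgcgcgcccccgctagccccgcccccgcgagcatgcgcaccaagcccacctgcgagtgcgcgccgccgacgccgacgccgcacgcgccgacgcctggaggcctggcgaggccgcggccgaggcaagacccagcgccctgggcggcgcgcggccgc
Cps1: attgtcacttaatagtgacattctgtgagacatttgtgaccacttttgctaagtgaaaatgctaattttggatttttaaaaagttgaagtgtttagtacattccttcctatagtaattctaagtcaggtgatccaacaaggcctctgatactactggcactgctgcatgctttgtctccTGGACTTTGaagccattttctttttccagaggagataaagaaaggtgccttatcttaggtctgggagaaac
G and C make up 78.8% of the Glud1 window and 38.0% of the Cps1 window. The table held such windows for 8 of the 10 genes, Sds and Arg1 being the others, and for Gls2 at 2 starts, 9 windows in all. Motifs were searched on both strands, and a match describes letters and not binding, just as no match says only that the letters are not in the window. TGTTCT, the core of the sites that androgen and glucocorticoid receptors bind, was in 0 of the 9 windows and in 17.5% of 33469 rat promoters. The cAMP response element TGACGTCA was in 0 of 9 and in 1.59%, and the C/EBP core TTGCNNAA in 0 of 9 and in 9.22%. TATAAA was in 1 of 9, that of Ass1, and in 12.9% of promoters. A further 2 motifs were chosen after these sequences had been read. The HNF4-type sequence TGGACTTTG was in 1 of 9, at positions -71 to -63 from the start of Cps1 (the capitals above), and in 0.338% of promoters. The CCAAT box was in 3 of 9, those of Got1, Tat and 1 start of Gls2, and in 34.0%.

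Outside the 10 genes, the pattern of Glud1 probe A_43_P14157 over the 8 arrays was most closely matched by Rpl35, Ugt2b and Rps21 among 9804 named genes. The root mean square difference of the log2 ratio was 0.143 for Rpl35 and 0.155 for Rps21, which encode cytosolic ribosomal proteins, and 0.153 for Ugt2b, which encodes a glucuronidating enzyme. Rpl35 had log2 ratios of 0.49, 0.94, 0.46 and 0.54 in obese rats and 0.48, 0.41, 0.54 and 0.25 in lean rats, and Ugt2b had 0.78, 0.63, 0.44 and 0.73 in obese rats and 0.41, 0.57, 0.56 and 0.48 in lean rats. Both were above 0 on all 8 arrays, as the Glud1 probe was, which follows largely from their choice by closeness to it.

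Lists of the neighbouring pathways, 7 lists with 89 genes that passed the filter, each by its brightest probe, had 0 genes called with TU in limma. At an unadjusted p under 0.05 there were 21 of 89 in obese rats (23.6%, beside 12.7% of all probes), 13 in lean rats (14.6%, beside 15%) and 6 for the difference (6.74%, beside 7.62%). The shares in lean rats and for the difference were thus near those of all probes. On some of the 21 genes in obese rats, obese replicate 2 stood apart. Bckdk had -1.33 there, against -0.22 to -0.13 on the other obese arrays, and Got2 is given below. On others, such as Tdo2 and Prodh, it lay within the range of the other obese arrays. How far the share of 23.6% rests on that array was not tested. Ahcy, which splits S-adenosylhomocysteine in the methionine cycle, had the lowest adjusted p of these in lean rats (0.61 ± 0.12, adjusted p = 0.0837), with log2 ratios of 0.43, -0.064, 0.60 and 0.65 in obese rats, against 0.82, 0.71, 0.41 and 0.51 in lean rats. Got2, the mitochondrial partner of Got1, had -0.12, -1.17, -0.18 and -0.10 in obese rats, against -0.30, -0.24, -0.37 and -0.36 in lean rats. Nags, which makes the activator that Cps1 needs, had -0.19, -1.07, 0.20 and -0.036 in obese rats, against -0.62, -0.54, -0.41 and -0.18 in lean rats. In obese rats the glucocorticoid target Tsc22d3 had 0.94, 1.21, 0.85 and 0.39, above 0 on every obese array (0.85 ± 0.17, adjusted p = 0.226), against 0.87, 0.048, -0.16 and 0.57 in lean rats. Fkbp5, Per1 and Klf15, which glucocorticoids are also known to raise, stood at 0.026 ± 0.080, 0.060 ± 0.041 and 0.11 ± 0.12 in obese rats, without a call. Prodh, the proline dehydrogenase, had 0.12, 0.50, 0.77 and 0.63 in obese rats, against -0.34, -0.29, -0.36 and -0.026 in lean rats, without overlap. Its responses were 0.50 ± 0.10 in obese rats and -0.25 ± 0.10 in lean rats (adjusted p = 0.225 and 0.290), and their difference of 0.76 ± 0.14 was not called (0.625). Without obese replicate 2, whose log2 ratios spread most, 9 of the 89 were called in lean rats: Ahcy, Tdo2, Ftcd and Sdsl as higher, and Tbx3, Nags, Got2, Bckdk and Aldh4a1 as lower (adjusted p 0.00919 to 0.0477). Calls over all probes in lean rats rose with them under that setting, to 1199 of 26896 (4.46%, beside 10.1% of the 89), against 53 with all arrays. Sdsl was named after its value was seen.

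Between obese and lean rats 19 of the 89 were called with TU and 23 with vehicle, 21.3% and 25.8%, beside 20.7% and 15.3% of all probes. Of 12 other genes of glutamate, glutamine and transaminases, Agxt, the alanine-glyoxylate aminotransferase, was higher in obese rats with TU (1.16 ± 0.11, limma adjusted p = 0.000746) and with vehicle (1.30 ± 0.24, 0.0139). Gpt, the alanine transaminase, was higher with TU (0.83 ± 0.20) and with vehicle (0.92 ± 0.13), and Prodh was lower with vehicle (-1.13 ± 0.25) and stood at -0.37 ± 0.21 with TU, without a call (adjusted p = 0.253). The call for Gpt with TU was lost without lean replicate 3 or 4, and that for Prodh without lean replicate 1, 2 or 4 (adjusted p up to 0.0659 and 0.0727). The median of the list was 0.22 with TU and 0.32 with vehicle.

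Among 7 urea cycle partners and arginine-using genes, Nags and Gamt were called higher in obese rats with TU and Gamt, Odc1 and Slc7a2 with vehicle, and 6 of 7 and 7 of 7 lay above 0. Nags was 0.80 ± 0.16 higher with TU (adjusted p = 0.0104) and at 0.64 ± 0.24 with vehicle (0.110). Gamt, which makes creatine, was 0.60 ± 0.13 higher with TU and 0.84 ± 0.16 with vehicle, and both calls were lost with the processed signals (adjusted p = 0.238 and 0.0615). Of 18 genes of serine, glycine, threonine and sulfur amino acids, 2 were higher and 1 lower with TU, and 2 higher and 3 lower with vehicle. Csad, which leads to taurine, was lower under both treatments (-1.34 ± 0.26 with TU and -1.51 ± 0.28 with vehicle), while Cdo1, the cysteine dioxygenase before it, was higher under both (0.80 ± 0.13 and 0.72 ± 0.14). Phgdh, the first enzyme of serine synthesis, was lower with vehicle (-2.95 ± 0.82, adjusted p = 0.0496), a call lost without any 1 array except lean replicate 1. Its levels were 7.48, 8.02, 8.80 and 8.38 in obese rats, against 8.67, 12.04, 12.71 and 11.07 in lean rats, and the groups overlapped. The other calls in that list were Sardh with TU (0.71 ± 0.16), lost without lean replicate 1, and Cbs (-0.85 ± 0.22) and Mtr (0.24 ± 0.063) with vehicle, both lost without any 1 array except obese replicate 1. Mtr had low log2 levels with vehicle, 6.99 to 7.40. The vehicle calls of Gamt and Cdo1 were lost without lean replicate 2 or 3, those of Odc1 without lean replicate 1, 2 or 4, and those of Slc7a2 without any 1 lean array or obese replicate 4 (adjusted p up to 0.0895).

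Branched-chain and lysine breakdown gave 4 genes higher and 1 lower of 18 under each treatment. Bckdhb, a subunit of the branched-chain keto acid dehydrogenase, was 0.90 ± 0.12 higher with TU and 1.03 ± 0.11 with vehicle, and Bckdk, the kinase that inactivates that enzyme, was 0.88 ± 0.15 and 1.04 ± 0.27 higher. Aldh6a1 (0.86 and 1.01) and Hibadh (0.47 and 0.67) of valine breakdown were higher too, and Acadsb was lower (-0.64 and -0.69). Of 12 genes of aromatic amino acids, histidine and tryptophan, Haao and Acmsd were higher with TU and Haao, Acmsd and Tdo2, the tryptophan dioxygenase, with vehicle (Tdo2 at 0.81 ± 0.16). Calls in these 2 lists that were lost when some single arrays were left out were those of Bckdk with vehicle, Hibadh with TU, Acadsb and Acmsd under both treatments, and Haao and Tdo2 with vehicle. Over all probes, vehicle calls numbered 1738 to 1837 without any 1 lean array, against 4110 with all arrays. Bckdk with vehicle was lost without any 1 lean array and without obese replicate 1 or 4 (adjusted p up to 0.102), and Hibadh with TU without any 1 array except lean replicate 1 (0.124). Acadsb was lost without any 1 lean array and without obese replicate 2 or 4 with TU (0.113), and without any 1 lean array and obese replicate 1 or 2 with vehicle (0.111). Acmsd was lost without lean replicate 1, 3 or 4 and obese replicate 1, 3 or 4 with TU (0.119), and without any 1 lean array and obese replicate 4 with vehicle (0.106). Haao with vehicle was lost without lean replicate 1, 2 or 3 and Tdo2 without lean replicate 2, 3 or 4 (0.0543 and 0.0536). Among 15 hormonal regulators, the glucagon receptor Gcgr was higher with vehicle (0.59 ± 0.091), a call lost with the processed signals (0.15, adjusted p = 0.627) and with the replicate block (0.0509), and Crebl2 under both treatments (0.57 ± 0.067 with TU and 0.81 ± 0.14 with vehicle). With TU, the insulin receptor Insr (0.57), Cebpa (0.59) and Tsc22d3 (0.62) were higher, and the call of Tsc22d3 was lost with the processed signals (adjusted p = 0.132). Log2 levels with TU were low for Insr (7.24 to 7.98) and Crebl2 (7.33 to 8.06). Of 9 genes of pericentral hepatocytes, which take up the ammonia that the urea cycle leaves, 0 were called higher. The ammonium transporter Rhbg was lower with TU (-0.97 ± 0.14) and with vehicle (-0.87 ± 0.15). The glutamate transporter Slc1a2 was lower with vehicle (-0.71 ± 0.19), a call lost without any 1 array except obese replicate 3 (0.119). Both had low log2 levels with vehicle, 7.13 to 8.46 for Rhbg and 7.16 to 8.55 for Slc1a2, beside 10.63 to 12.60 for Cps1. The pericentral median was -0.14 with TU and -0.44 with vehicle, with 4 and 1 of 9 above 0.

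Other processing of all 8 arrays also ended calls in these lists. With the scanner software's processed signals, 4 of the 19 TU calls were lost, those of Gamt, Haao, Hibadh and Tsc22d3 (adjusted p 0.0843 to 0.283). Of the 23 vehicle calls 8 were lost, those of Gamt, Odc1, Cbs, Cdo1, Mtr, Haao, Tdo2 and Gcgr (0.0562 to 0.865). With the replicate block 3 TU calls and 13 vehicle calls were lost (adjusted p 0.0717 to 0.0972 and 0.0505 to 0.102), and with no filter 3 and 6. With each dye centred on its median and no loess, Rhbg with vehicle was the only one of these genes to keep its call, and the list medians ran from -0.20 to 0.25 with TU and from -1.01 to -0.046 with vehicle. Under that setting the vehicle differences of Gamt, Cdo1, Tdo2, Hibadh and Gcgr turned sign, to -0.28, -0.12, -0.24, -0.058 and -0.45, without a call.

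**Figure D4:**
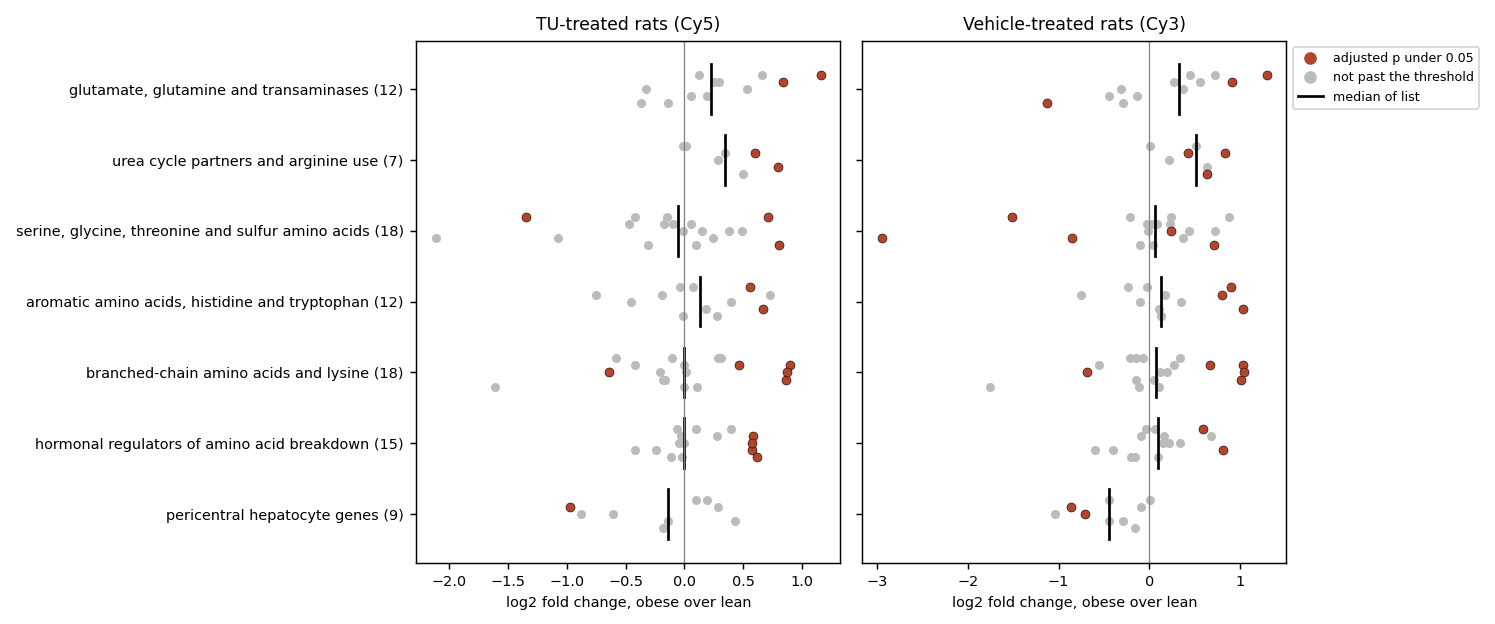
Log2 fold changes of obese over lean rats are plotted for the genes of 7 lists, numbers in parentheses giving the genes that passed the filter, for TU-treated rats on the left and vehicle-treated rats on the right. Red points passed the threshold, grey points did not and black bars are list medians, which run from -0.14 to 0.34 with TU and from -0.44 to 0.51 with vehicle.

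Markers of the cells of the liver moved beside some of these results. In the TU response, 5 of 8 hepatocyte markers lay above 0 in obese rats (median 0.11) and 8 of 8 in lean rats (0.37, 1 called), beside the lean median of 0.13 for the 12 probes. Kupffer cell and macrophage markers were below 0 for 7 of 7 genes in each genotype, with 0 called in limma (medians -0.19 in obese rats and -0.15 in lean rats). Their mean log2 level spanned 9.04 to 9.90 in TU-treated and 9.38 to 10.11 in vehicle-treated obese rats, and 9.58 to 9.79 in TU-treated and 9.57 to 10.07 in vehicle-treated lean rats. The 3 erythroid markers had a median response of -0.28 in obese rats (0 called) and 0.98 in lean rats (1 called, 3 of 3 above 0). For the obese minus lean difference their median was -1.26. There 0 were called, with 3 of 3 at an unadjusted p under 0.05 in limma, beside 7.62% of all probes. Between obese and lean rats the hepatocyte median was -0.27 with TU and 0.038 with vehicle, beside 0.86 and 1.05 for Cps1. With TU, Apoa1 was called higher and Tf lower of the 8, and with vehicle Alb and Apoa1 higher. The mean hepatocyte level spanned 15.68 to 17.08 in obese and 16.81 to 17.07 in lean rats with TU, and 15.69 to 16.83 in obese and 16.43 to 16.61 in lean rats with vehicle. Markers of other cells differed between the genotypes too. The erythroid median was -0.27 with TU (0 of 3 called) and 1.13 with vehicle, where Hbb-b1 was called higher in obese rats. Of 3 sinusoidal endothelial markers, Lyve1 (-0.46) and Pecam1 (-0.18) were lower with TU, and 0 were called with vehicle, where the median was -0.21. Of 4 stellate cell markers, Lrat was lower with TU (-0.70) and with vehicle (-0.94), and Col1a1 was higher with TU (1.91). Under each treatment 3 of the 4 stellate markers lay above 0, with medians of 0.48 with TU and 0.21 with vehicle. Of 2 lymphocyte markers, Cd3d was lower under both treatments (-0.91 and -0.82), and the other stood at 0.083 with TU and -0.10 with vehicle. Of 7 Kupffer cell and macrophage markers, Clec4f was lower with TU (-0.91). Under each treatment 4 of these 7 lay above 0, with medians of 0.070 with TU and 0.0003 with vehicle. The 2 cholangiocyte markers measured gave 0 calls. The mean erythroid level spanned 12.91 to 13.47 in obese and 12.92 to 13.81 in lean rats with TU, and 12.59 to 14.30 in obese and 11.54 to 12.74 in lean rats with vehicle. The part of these cells in the results was not tested.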

How the data were processed

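Liver RNA of 8 two-colour Agilent rat arrays was compared, 4 holding obese and 4 holding lean rats, and labels gave groups and replicates. The authors deposited scanner tables from Agilent Feature Extraction, per the file headers, with median intensity per spot and background in each dye, processed intensity, the log10 ratio of Cy5 over Cy3 and quality flags. The deposited value table held log2 ratios that matched the processed signals (r at least 0.9997, slope on the log10 ratio 3.32 to 3.33, column medians 0.046 to 0.14). They ran as TU over vehicle, and how they were centred stays unknown.

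Here, median intensities were background-corrected with normexp (offset 50), normalized by loess within arrays and, for levels in one dye, by Aquantile between arrays in limma 3.58.1 (R 4.3.3). Control spots (1639 of 45018) and non-uniform spots were left out. A probe was kept if well above background in either dye on at least 4 of 8 arrays. limma's lmFit and eBayes fitted all kept probes, with both genotypes sharing one spread, and p-values were adjusted over all of them by Benjamini-Hochberg at 0.05. Well above background were 58.4 to 69.1% of distinct non-control probes in Cy3 and 50.4 to 60.6% in Cy5, and the number of arrays limits the precision. Probes were named through the RefSeq accessions in a newer and an older version of the array annotation. The newer version was read from the file of a lean array and the older from that of an obese array, the probes being the same on all arrays. The newer version named 16815 probes, the older alone named 195, and 24002 stayed unnamed. The accession differed between the versions for 13137 of the 41012 distinct probes, but for 0 of the 12 probes followed here. The fit was tested on simulated data. Alternatives covered background, normalization, filter, moderation, probe summary, genotype, replicate block and each array left out. Same-numbered obese and lean arrays did not deviate together in the log2 ratio (r -0.10 to 0.16). An effect shared by both dyes of an array cancels in the ratio, so this says nothing of pairing in the levels. All 12 probes were described, and the rule named, per wider list and comparison, up to 6 called genes by size of change or, with none called, the 2 with the largest change among those on one side of 0 on all arrays (for obese over lean, without overlap). Not all of these are printed. The genes and lists were chosen with earlier results of these data known. The recount of the lists under every setting was added after seeing the data.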

Additional observations from a re-analysis of the deposited data

Results flagged for a closer look

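In 72 groups of 4 arrays, 12 probes in the log2 ratio and in each dye, 3 values stood far from the other 3 of their group by Dixon's test. Chance flags about 1 in 20 such groups. The Sds log2 ratio of obese replicate 1 was -0.37, while the other obese arrays lay between 0.024 and 0.076. Got1 in TU-treated obese replicate 1 had a log2 level of 11.89, above the other obese arrays at 11.21 to 11.23. Gls2 in TU-treated lean replicate 1 had a level of 12.84, below the other lean arrays at 13.43 to 13.50.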

How the results depend on the processing

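The single TU call among the 12 probes, that of Glud1 probe A_43_P14157, depended on the processing. In obese rats 0 probes were called with median centring, scaling between arrays, background subtraction, processed signals, the authors' log ratios, trend and robust settings, the mean of probes per gene, the obese arrays alone or the replicate block, and in lean rats 0 with scaling, subtraction, processed signals, the authors' log ratios, trend and robust settings, the mean of probes, the block or a filter that asked for both dyes on all 8 arrays. Without each array in turn, 0 to 1 were called in obese rats, 0 to 1 in lean rats and 0 to 0 for the difference. Between obese and lean rats, TU calls numbered 2 with processed signals, with the brightest probe and with the mean of probes per gene, and 0 with median centring of the dye alone (3 to 5 without each array), against 4 as reported. Vehicle calls numbered 1 with processed signals, with the brightest probe and with the replicate block, and 0 with median centring of the dye alone (1 to 4 without each array), against 3 as reported. Taking 1 probe for Glud1 in place of 3 lowers these counts by construction. Otherwise the cause was not tested. While the calls among the 12 fell with processed signals, those over all probes rose. They numbered 8109 of 26894 with TU and 6158 with vehicle, against 5565 and 4110 as reported. With the replicate block, 0 TU responses were called in either genotype and 3 of 12 obese over lean differences with TU. The labels give same-numbered arrays no link but the number.

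Signs turned as follows, with none of the turned values called. With median centring, lean responses were Glud1 probe A_43_P14157 -0.092, Gls2 -0.24, Got1 -0.11, Sds -0.083, Ass1 -0.36, Asl -0.37 and Arg1 -0.031, obese responses Glud1 probe A_44_P259908 0.22, Glud1 probe A_44_P472500 0.16, Sds 0.028, Otc 0.082, Ass1 0.25 and Asl 0.17, and differences Glud1 probe A_44_P259908 0.86, Glud1 probe A_44_P472500 0.75, Got1 0.42, Tat 0.12, Sds 0.11, Cps1 0.59, Otc 0.66, Ass1 0.61, Asl 0.55 and Arg1 0.80. Scaled between arrays, obese responses were Tat 0.019, Sds 0.095, Cps1 0.17, Ass1 0.056 and Asl 0.59, the lean response Otc 0.021, and differences Got1 0.68, Tat 0.27, Cps1 0.30, Ass1 0.046, Asl 0.51 and Arg1 1.38. Processed signals and the authors' log ratios both gave Sds 0.0092 in obese rats, Ass1 -0.047 in lean rats and a difference of Arg1 0.014, and background subtraction gave Sds 0.0050 in obese rats. Obese over lean differences with TU were Got1 -0.053 and Otc -0.036 from processed signals and Got1 -0.20 with median centring of the dye. With vehicle they were Glud1 probe A_43_P14157 -0.98, Glud1 probe A_44_P259908 -0.18, Gls2 -0.67, Got1 -0.38, Tat -0.20, Otc -0.39, Ass1 -0.32 and Asl -0.20 with median centring, Gls2 -0.075 from processed signals and Glud1 probe A_43_P14157 -0.0054 with quantile normalization. Without each array in turn, obese responses spanned 0 for Glud1 probe A_44_P472500 -0.29 to 0.0064, Got1 -0.029 to 0.17, Sds -0.096 to 0.054, Cps1 -0.44 to 0.063, Ass1 -0.49 to 0.034 and Asl -0.16 to 0.12, lean responses for Otc -0.14 to 0.035, Ass1 -0.022 to 0.17 and Asl -0.041 to 0.32, differences for Glud1 probe A_44_P259908 -0.11 to 0.13, Glud1 probe A_44_P472500 -0.21 to 0.082, Cps1 -0.34 to 0.16 and Arg1 -0.29 to 0.19, and obese over lean differences for Got1 -0.16 to 0.24 with TU and Sds -0.22 to 0.12 with vehicle.

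Counts over all probes moved too. In obese rats 3 were called (3 higher and 0 lower), against 209 with processed signals (152 and 57), 203 with the authors' log ratios (147 and 56), 23 with no background correction (20 and 3), 1 with subtraction, and 0 with median centring, scaling, trend and robust settings, the mean of probes, the obese arrays alone and the replicate block (in limma, 1428 to 3627 at an unadjusted p under 0.05). In lean rats 53 were called (33 higher and 20 lower), against 6683 with median centring (272 and 6411), 327 with no correction, 150 with subtraction, 276 and 278 with processed signals and the authors' ratios, 313 with the lean arrays alone, 23 with the replicate block, and 0 with scaling or with trend and robust settings (in limma, 3559 to 3650 at an unadjusted p under 0.05). For the difference the count was 1, against 2 with processed signals and with the authors' log ratios, and 0 with median centring, scaling, no background correction, subtraction, trend and robust settings, the mean of probes and the replicate block (in limma, 1853 to 9297 at an unadjusted p under 0.05). With median centring of the dye, TU-treated obese over lean calls were 27 (1 higher and 26 lower) and vehicle calls 334 (24 and 310), against 5565 and 4110. With the replicate block the vehicle calls numbered 1699, and with processed signals there were 8109 calls with TU and 6158 with vehicle. Without each array in turn, the counts were 0 to 2 in obese rats, 1 to 1199 in lean rats, 0 to 3 for the difference, 3563 to 8576 with TU and 1738 to 5721 with vehicle. Of the 89 genes of the wider lists, 0 were called with median centring of the dye with TU and 1 with vehicle, and 0 passed in any TU comparison without each array in turn except for 9 in lean rats without obese replicate 2.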
